A study of Mus musculus with 6 samples.

Results

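Potassium channel genes of the mouse colon were examined after loss of Hnf4α from the intestinal epithelium. They were taken as every gene whose platform symbol begins with Kcn and that had at least 1 probe set with no other symbol, which gave 84 genes of 18193 measured, read by 167 of 45037 probe sets. Each gene was represented by its probe set with the highest mean over the arrays, 46 genes having several probe sets and 38 only 1. Of the 84 genes, 81 encode proteins and 3, Kcnq1ot1, Kcnmb4os1 and Kcnmb4os2, are noncoding RNAs.

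RNA was taken from the proximal colon and read on Affymetrix whole-genome arrays, 1 mouse per array, with 3 control and 3 mutant mice. The mutants carried loxP sites in both copies of Hnf4α together with Cre under the Villin promoter, which acts in intestinal epithelial cells and leaves the gene intact in muscle, nerve and blood cells. The controls were labelled wildtype, and the design text names littermates. All mice were 1 year old, were kept free of pathogens and received ketamine (300 mg/kg) and xylazine (40 mg/kg) before sacrifice. The strain and whether the controls carried loxP sites or Cre are not given in the sources used here. The tissue was not separated into cell types, so a lower signal of a gene could stem from fewer cells of a type or from less RNA per cell, and these cannot be told apart.

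Potassium channels let potassium leave the cell and so set the membrane voltage. In the colonic epithelium, basolateral channels keep the cell negative and thereby drive chloride out through the apical membrane, while apical channels secrete potassium into the lumen. In smooth muscle and in the interstitial pacemaker cells of the gut wall, other members of the family limit excitability and shape the slow waves. The letter after Kcn names a structural group: a to d, f to h, q, s and v for voltage-gated subunits, j for inward rectifiers, k for tandem pore leak channels, m, n, t and u for channels that sense intracellular ions and their partners, and e and i for small accessory proteins.

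Values are log2 signals from RMA, and each difference is mutant minus control. SE stands for the standard error of a difference in limma, which adjusts p over all probe sets. Hnf4a ran from 11.97 to 12.23 in controls and from 10.09 to 10.17 in mutants. Mutant replicate 1 was labelled female and mutant replicates 2 and 3 male, and the controls female. Xist, made from the inactive X chromosome, ran from 9.94 to 10.96 in controls but from 5.03 to 5.32 in mutants, and Y-linked Eif2s3y from 2.75 to 3.16 in controls but from 7.85 to 8.12 in mutants, so all 3 mutants had the RNA of males. Sex and genotype therefore cannot be told apart in any difference below. The median level of 12 smooth muscle markers ran from 11.96 to 12.24 in controls and was 11.93, 7.88 and 11.57 in mutant replicates 1, 2 and 3. All 12 were more than 1 log2 unit lower in mutant replicate 2 than in the mean of the other mutants. That of 12 gut epithelium markers ran from 12.74 to 12.91 in controls and from 12.65 to 12.72 in mutants. Taken gene by gene, 8 of these 12 had positive and 4 negative differences. Their median against the control mean was -0.03, 0.19 and 0.14 in mutant replicates 1, 2 and 3.

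Few potassium channel genes passed an adjusted p of 0.05 from limma between mutant and control colon, and few of all genes did. With 3 arrays per group, a gene that did not pass may still have differed. Kcnk1, a tandem pore leak channel, rose and was the only 1 of the 84 that passed (1.19%, against 0.484% of all genes measured that rose). None fell, against 0.396% of all genes. At an unadjusted p of 0.05 or less, Kcnk1 and Kcns1, a modifier subunit of voltage-gated channels, were higher (2.38% of the 84 genes, against 10.01% of all genes) and Kcna5, a voltage-gated channel, and Kcnma1, the pore subunit of the large-conductance calcium-activated channel, were lower (2.38%, against 6.18% of all genes). The 3 mutants lay above the 3 controls for 7 genes (8.33%, against 14.5% of all genes) and below them for 4 genes (4.76%, against 8.86% of all genes). Apart from the gene that rose, each of these shares lay under that of all genes, a difference that was not tested. Without mutant replicate 2 none of the 84 rose or fell in limma (0.236% and 0.291% of all genes did), 1 was higher (6.29% of all genes) and 1 lower (5.61%) at the unadjusted p.

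The median log2 difference was 0.04 over the 84 genes and 0.05 over all genes. A control mean of 6 separated 22 genes with a stronger signal from 62 with a weaker one. Kcnab2, a cytoplasmic beta subunit, at 6.08 lay just inside this limit and Kcnc4, a voltage-gated channel, at 5.97 just outside it. Among the 22, 10 differences were positive and 12 negative, with a median of -0.05 (0.02 over all genes of that signal) and a range from -1.12 to 0.70. Among the 62, 44 were positive and 18 negative, with a median of 0.06 (0.07 over all genes of that signal) and a range from -0.81 to 0.41. At the unadjusted p of 0.05, 1 of the 22 was higher (12.3% of all genes of that signal) and 1 lower (8.87%), and 1 of the 62 was higher (6.85%) and 1 lower (2.49%). In the female controls the signal of 3 Y-linked genes, which they lack, ran from 2.75 to 4.01. Both group means were at or under 4.01 for 18 of the 84 genes. This limit differs by probe set, since Xist read 5.03 to 5.32 in the mutants, which had the RNA of males. The 18 may therefore leave out other genes with a signal near background.

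Most of the 84 genes had intervals of the signal within a 2-fold change, which is not shown to be particular to them. For 77 of the 84 genes the unadjusted 95% interval of the log2 difference from limma lay between -1 and 1. The other genes were Kcna1, Kcna5, Kcnd3, Kcne3, Kcnip4, Kcnj8 and Kcnq1ot1. Of the 22 genes with the stronger signal, 17 had intervals within these limits. The share over all genes was not counted. For the 18 genes with both means at or under 4.01 the size of a difference is uncertain. An interval of the signal there, or at any other gene with a signal near background, does not bound the change in RNA.

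**Figure D1:**
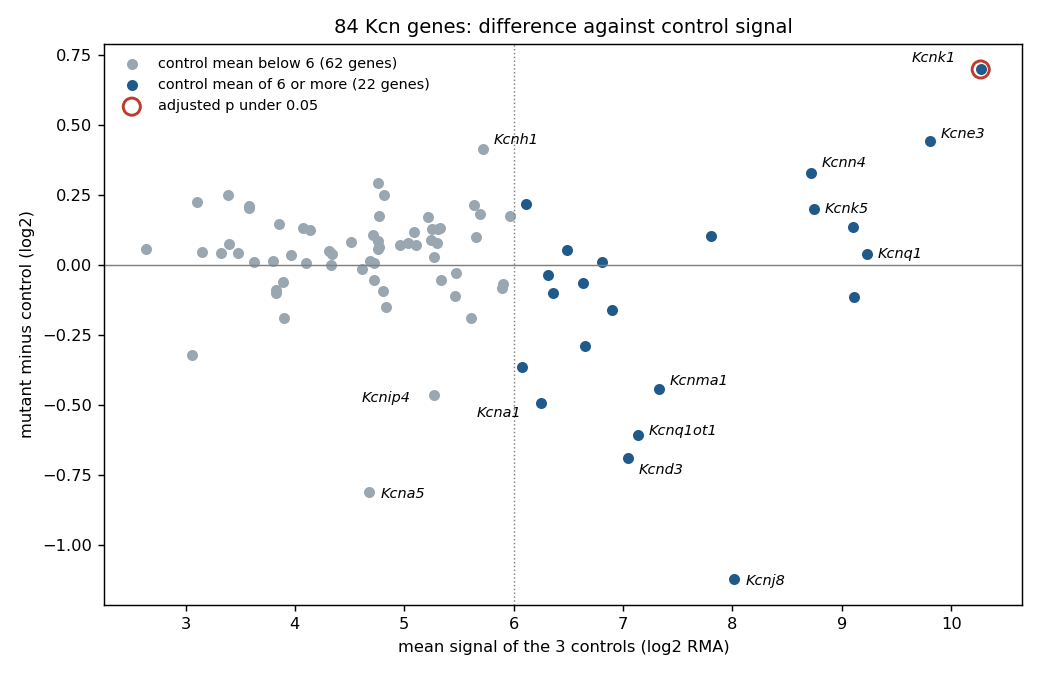
Difference between mutant and control colon (vertical axis, log2) against the mean signal of the 3 controls (horizontal axis, log2 RMA) for 84 Kcn genes, 1 point per gene. Kcnk1, ringed, had an adjusted p under 0.05, and the genes with a control mean below 6 lie between -0.47 and 0.41 except Kcna5 at -0.81.

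Kcnk1 was the clearest change among the channels of the colon epithelium. Its log2 signal was 10.32, 10.19 and 10.30 in the controls, replicates 1 to 3 in that order, and 10.93, 10.94 and 11.02 in the mutants. Every mutant lay above every control, and the spread within each group was small beside the gap. The log2 fold change was 0.70 (SE 0.09, 95% interval 0.48 to 0.91, limma adjusted p 0.0361), a ratio of 1.62. The second probe set of Kcnk1 had 9.10, 9.05 and 9.19 in the controls and 9.73, 9.87 and 9.84 in the mutants. It gave the same log2 fold change of 0.70 (SE 0.09, limma adjusted p 0.0384). Mutant replicate 2, the array low in muscle RNA, did not stand apart for Kcnk1, and without it the log2 fold change was 0.71, with an adjusted p of 0.0928 from limma. The adjusted p was between 0.0522 and 0.171 with any 1 array left out, while the log2 fold change stayed between 0.65 and 0.72.

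Upstream sequence from RefSeq (GRCm38.p6) is given for Kcnk1 and Kcna5, which had the lowest p among the Kcn genes that were higher and lower in the mutants. Kcnk1 lies on chromosome 8 from 125993655 to 126030685, and the window at chr8:125994852-125995101 on the plus strand precedes a transcript start inside that span, not its outer end. Kcna5 lies on chromosome 6 from 126532551 to 126535555, and the window at chr6:126535556-126535805 on the minus strand lies directly before it.
Kcnk1: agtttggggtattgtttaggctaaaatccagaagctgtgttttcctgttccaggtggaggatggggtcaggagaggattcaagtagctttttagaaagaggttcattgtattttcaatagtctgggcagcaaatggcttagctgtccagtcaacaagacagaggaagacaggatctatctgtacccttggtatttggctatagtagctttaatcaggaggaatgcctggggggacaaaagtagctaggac
Kcna5: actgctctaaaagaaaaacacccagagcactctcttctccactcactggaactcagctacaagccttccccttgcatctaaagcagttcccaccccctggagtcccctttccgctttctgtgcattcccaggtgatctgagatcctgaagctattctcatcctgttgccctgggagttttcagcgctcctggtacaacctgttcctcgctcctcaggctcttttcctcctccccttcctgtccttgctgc
The HNF4 motif CAAAGTCCA was sought on both strands in RefSeq windows of 300 bases that span each start. It was in 0.475% of 32851 windows of all genes and in none of 89 windows of the 64 Kcn genes matched. As these letters were not in the printed windows, no base is in capitals, and nothing follows from this about binding there or elsewhere.

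The other epithelial channels overlapped between the groups. Kcnq1, the pore subunit of the basolateral channel opened by cyclic AMP, had log2 signals of 9.07, 9.07 and 9.55 in the controls and 9.50, 9.12 and 9.18 in the mutants. Its partner Kcne3, a small subunit that holds that channel open, had 9.58, 9.57 and 10.26 in the controls and 10.59, 10.33 and 9.81 in the mutants. For both, control replicate 3 lay within or above the range of the mutants. The log2 fold change of Kcnq1 was 0.04 (SE 0.17, 95% interval -0.37 to 0.45), and that of Kcne3 was 0.44 (SE 0.26, 95% interval -0.18 to 1.06).

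Kcnn4, the intermediate-conductance calcium-activated channel of the basolateral membrane and of leukocytes, had 8.64, 8.40 and 9.13 in the controls and 9.57, 8.69 and 8.89 in the mutants. Only mutant replicate 1 lay above all controls. The log2 fold change was 0.33 (SE 0.27, 95% interval -0.32 to 0.97), and the second probe set gave 0.31. Kcnk5, an acid-sensitive tandem pore channel of secretory epithelia, had 9.06, 8.67 and 8.50 in the controls and 8.57, 9.18 and 9.08 in the mutants, with the groups overlapping and a log2 fold change of 0.20 (SE 0.21, 95% interval -0.30 to 0.70). Of the 6 epithelial channels listed, 1 rose (0.484% of all genes) and none fell (0.396%), and 5 differences were positive, as were 10984 of the 18193 over all genes, with a median of 0.26 against 0.05 over all genes and 0.25 without mutant replicate 2.

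Kcnma1 was the sixth of these and is shared between the apical membrane of colonocytes and smooth muscle. Its log2 signal was 7.35, 7.15 and 7.48 in the controls and 7.17, 6.59 and 6.88 in the mutants. Mutant replicate 1 lay within the range of the controls, mutant replicate 2 was lowest, and mutant replicate 3 lay between them. The log2 fold change was -0.44 (SE 0.17, limma adjusted p 0.344), and it was -0.30 without mutant replicate 2, where the unadjusted p was 0.0948. Of its 5 probe sets 4 gave negative values, from -0.86 to -0.40, and 1 with means of 3.46 and 3.56 gave 0.11.

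**Figure D2:**
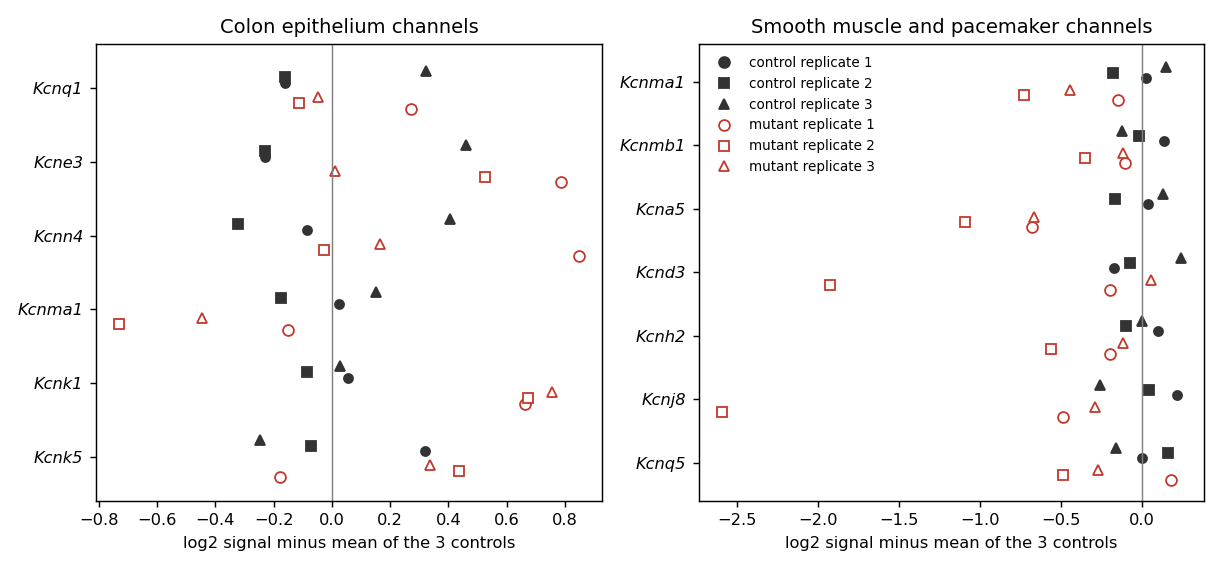
Signal of each array minus the mean of the 3 controls (horizontal axis, log2) for 6 channels of colon epithelium and 7 of smooth muscle and pacemaker cells, of which Kcnma1 stands in both panels. Filled symbols are controls, open symbols mutants, shapes replicates and the panels differ in scale: Kcnk1 separates the groups, and mutant replicate 2 stands farthest to the left for Kcnj8 and Kcnd3.

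The channels of smooth muscle and pacemaker cells had lower values in the mutants, above all in mutant replicate 2. Each of the 7 listed genes had a negative value, with a median of -0.44 against 0.05 over all genes. None fell in limma, while 2 of the 7, Kcna5 and Kcnma1, were lower at the unadjusted p (6.18% of all genes). Without mutant replicate 2 the median was -0.16, against 0.03 over all genes, and of the 7 Kcna5 alone was lower at that p (5.61% of all genes). Set against the control mean, these 7 genes had a median of -0.20, -0.73 and -0.27 in mutant replicates 1, 2 and 3, and the 12 smooth muscle markers one of -0.29, -3.95 and -0.46. The part of the lower muscle content in these differences was not tested. In mutant replicate 2 other cells of the gut wall were low too. Against the controls, 11 fibroblast and matrix genes had a median of 0.03, -3.43 and -0.39 in mutant replicates 1, 2 and 3, and 8 endothelial markers had -0.20, -1.39 and -0.45. The pacemaker cell markers Kit and Ano1 did not set that array apart, with 0.11, -0.94 and -0.91 in the mutants and a range from -0.74 to 0.77 in the controls.

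Kcnj8 had the widest difference of the family by representative probe sets. It encodes a pore of ATP-sensitive channels in vascular and visceral muscle. Its log2 signal was 8.23, 8.06 and 7.76 in the controls and 7.53, 5.42 and 7.73 in the mutants. All mutants lay below all controls, but mutant replicate 3 differed from control replicate 3 by little and mutant replicate 2 lay far below the rest. The log2 fold change was -1.12 (SE 0.58, limma adjusted p 0.457), and it was -0.39 (SE 0.17, limma adjusted p 0.563) without mutant replicate 2. Kcnd3, a voltage-gated channel of fast transient currents, had 6.87, 6.97 and 7.29 in the controls and 6.85, 5.11 and 7.10 in the mutants. Mutant replicates 1 and 3 lay at the level of the controls, so that the log2 fold change of -0.69 (SE 0.49, limma adjusted p 0.573) became -0.07 without mutant replicate 2. These were the 2 of the 22 genes with the stronger signal (9.09%, against 4.96% of all genes of that signal) that were more than 1 log2 unit lower in mutant replicate 2 than in the mean of the other mutants. None of the 62 genes with the weaker signal was (0.743% of all genes of that signal), which made 2.38% of the 84 against 3.18% of all genes.

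Kcna5 was lower than the controls in all 3 mutants, at a weak signal. This voltage-gated channel of vascular and gut muscle had log2 signals of 4.72, 4.51 and 4.81 in the controls and 4.002, 3.59 and 4.01 in the mutants. The groups did not overlap, and the mutant mean of 3.87 was under the highest signal of Y-linked genes in controls, so that the size of the difference is uncertain. The log2 fold change was -0.81 (SE 0.15, limma adjusted p 0.0912), and it was -0.67 (adjusted p = 0.155) without mutant replicate 2. With array weights in limma the log2 fold change was -0.80 and the adjusted p was 0.0374.

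Kcnh2, a channel of pacemaker cells and muscle, had 6.75, 6.56 and 6.66 in the controls and 6.46, 6.10 and 6.54 in the mutants. The mutants lay below the controls, yet mutant replicate 3 differed from control replicate 2 by little, and the log2 fold change was -0.29 (SE 0.14, limma adjusted p 0.429). Kcnmb1, the beta subunit that tunes the large-conductance channel of smooth muscle, had -0.19 (SE 0.12) by its representative probe set. Its other probe set, with a lower mean over the arrays, had 5.72, 5.82 and 5.52 in the controls and 5.35, 4.14 and 5.39 in the mutants, a log2 fold change of -0.73 (SE 0.33, limma adjusted p 0.411). The groups did not overlap in that probe set but did in the representative one, and mutant replicate 2 was the lowest array in both. Kcnq5, a voltage-gated channel with a low signal here, had -0.19 (SE 0.18).

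**Figure D3:**
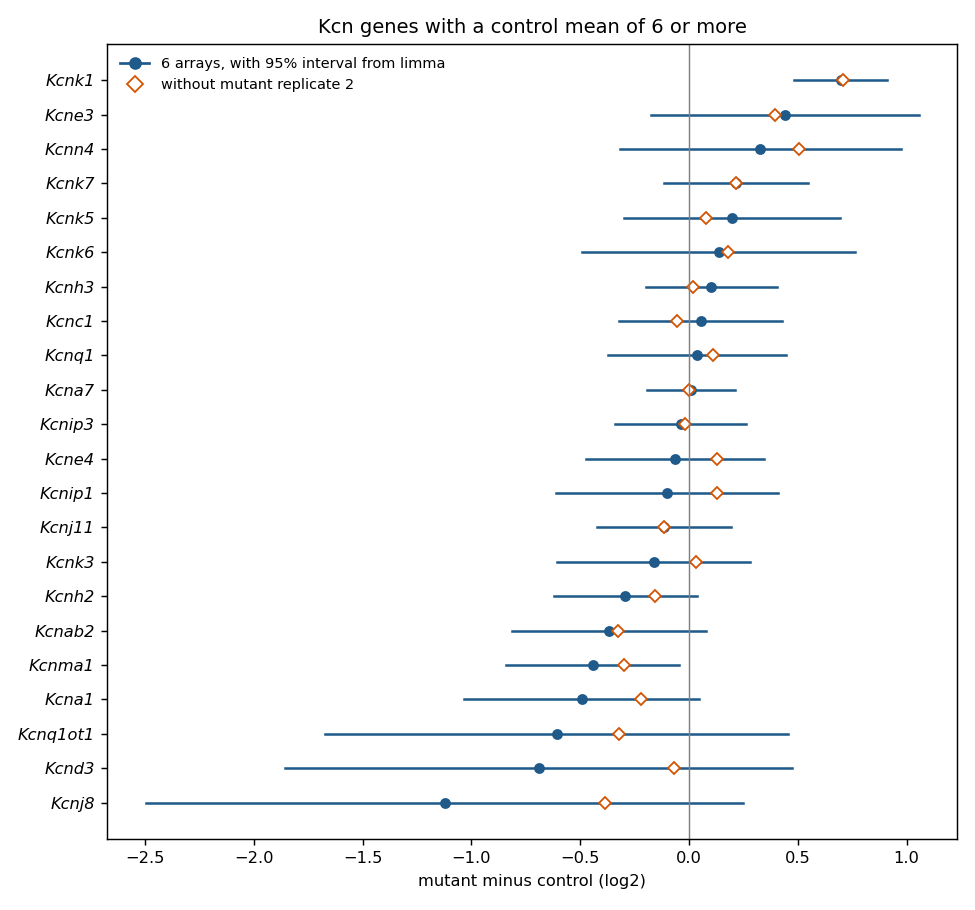
Difference between mutant and control colon (horizontal axis, log2) for the 22 Kcn genes with a control mean of 6 or more; circles and bars give the estimate and 95% interval from limma with 6 arrays, and diamonds the estimate without mutant replicate 2. Leaving that array out moved Kcnj8 from -1.12 to -0.39 and Kcnd3 from -0.69 to -0.07 and left Kcnk1 near 0.70.

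Channels work as complexes, and the partners were read beside the pores. Abcc9, the sulfonylurea receptor that pairs with Kcnj8 in muscle, had log2 signals of 9.04, 8.45 and 8.54 in the controls and 8.19, 4.47 and 8.68 in the mutants. As for Kcnj8, mutant replicate 2 alone was far below the others, and the log2 fold change of -1.57 became -0.25 without it. Kcnj11, the pore of the ATP-sensitive channels of endocrine cells, had 8.86, 9.27 and 9.21 in the controls and 9.05, 8.99 and 8.95 in the mutants, a log2 fold change of -0.12 (SE 0.13, 95% interval -0.42 to 0.19). Its receptor Abcc8 had -0.16 (SE 0.14), and neither was low in mutant replicate 2.

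Lrrc26, the gamma subunit that lets the large-conductance channel open in secretory epithelium at rest, had 9.55, 9.81 and 10.26 in the controls and 10.56, 10.79 and 10.76 in the mutants. It lay higher in every mutant, unlike Kcnma1 and Kcnmb1, with a log2 fold change of 0.83 (SE 0.19, limma adjusted p 0.145) that did not pass the test and was 0.79 without mutant replicate 2. Dpp10, which traffics the channels of Kcnd3 to the membrane, had 6.76, 5.89 and 7.37 in the controls and 6.59, 3.71 and 5.44 in the mutants. Its log2 fold change of -1.43 (SE 0.72) became -0.66 without mutant replicate 2. The calcium-binding partners of the same channels, Kcnip1 and Kcnip4, had -0.10 (SE 0.22) and -0.47 (SE 0.28), and 4 of 4 Kcnip genes had negative values. Without mutant replicate 2 Kcnip1 had 0.13 and the other 3 stayed negative. Some further probe sets of Kcnip1 and Kcnip2 gave positive values, from 0.10 to 0.22. Another of Kcnip1 gave -0.39 (SE 0.22), and another of Kcnip2 gave -0.30 (SE 0.09, limma adjusted p 0.279). In both of these the mutants lay below the controls.

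**Figure D4:**
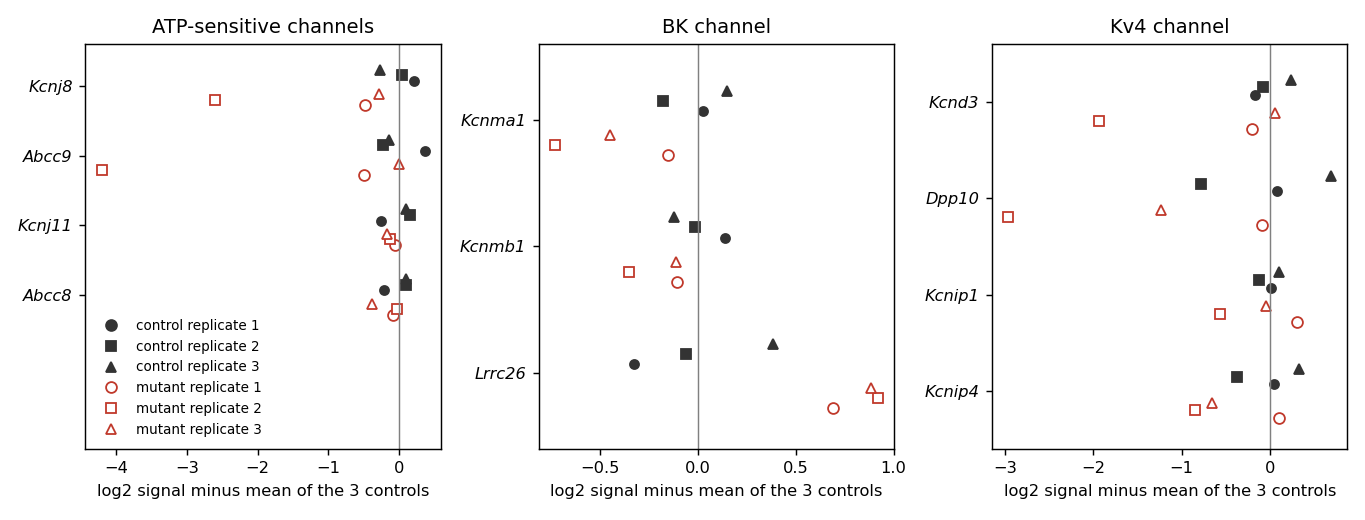
Signal of each array minus the mean of the 3 controls (horizontal axis, log2) for subunits of ATP-sensitive channels, of the large-conductance (BK) channel and of the Kcnd3 (Kv4) channel; filled symbols are controls, open symbols are mutants and the shape gives the replicate. Kcnj8 and Abcc9 are lowest in mutant replicate 2, Kcnj11 and Abcc8 are not, and Lrrc26 lies higher in all mutants.

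Channels of leukocytes showed no difference that passed the test. The 4 listed genes had positive values from 0.06 to 0.33, with a median of 0.11 against 0.05 over all genes, and none was higher even at the unadjusted p. Kcna3, the voltage-gated channel of T cells, had 4.73, 4.89 and 4.67 in the controls and 4.86, 4.73 and 4.90 in the mutants, a log2 fold change of 0.06 (SE 0.10, 95% interval -0.18 to 0.31). Kcnk6, a tandem pore channel of macrophages and epithelia, had 8.74, 8.90 and 9.68 in the controls and 9.54, 9.16 and 9.02 in the mutants, so that the mutants lay within the range of the controls. Its log2 fold change was 0.14 (SE 0.26). Kcnk13, a channel of myeloid cells, had 0.09 (SE 0.13). Of 13 leukocyte markers none passed the test, and their median was between -0.32 and -0.05 in the mutants relative to the controls. That median joins markers that moved in opposite directions. At the unadjusted p 2 were higher (10.01% of all genes), Cd14 (0.56) and S100a8 (0.56). Lower at that p were 2 (6.18% of all genes), Ptprc (-1.25) and Cd79a (-0.83).

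Channels of glia and neurons did not pass the test. Of 6 listed genes 4 had negative and 2 positive values, with a median of -0.08 against 0.05 over all genes, and none passed even the unadjusted p by its representative probe set. Kcnip4 had another probe set at -0.49 (SE 0.17, limma adjusted p 0.324) with an unadjusted p of 0.0270, and its representative one had -0.75 with an unadjusted p of 0.0139 without mutant replicate 1. Kcnj10, the inward rectifier of glia, had 4.72, 4.74 and 4.96 in the controls and 5.02, 4.17 and 4.95 in the mutants. Its log2 fold change went from -0.09 to 0.18 without mutant replicate 2. Kcnip1 went from -0.10 to 0.13 in the same way. Kcnc1, of fast-spiking neurons, had 0.05 (SE 0.16), Kcnd2, of neuronal transient currents, 0.01 (SE 0.09), and Kcnq3, of the M-current, -0.06 (SE 0.10). Each of 9 enteric neuron markers had a negative value, with a median of -0.87 in mutant replicate 2 and of -0.19 and -0.41 in mutant replicates 1 and 3 relative to the controls. The part of these cells in the channel values was not tested.

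By structural group, the tandem pore channels held the only gene that rose. Of 12 Kcnk genes 10 had positive values, with a median of 0.11 and a range from -0.16 to 0.70. Over all genes 10984 of 18193 values were positive, with a median of 0.05. At a control mean below 6, where 7 of the 12 Kcnk genes lay, 5337 of 7669 were positive. The signs by structural group were not tested against these shares. Kcnk7, a member not known to carry current, averaged 6.12 ± 0.24 (SD, n = 3) in controls against 6.33 ± 0.09 (SD, n = 3) in mutants, a difference of 0.21 (SE 0.14). Of 15 inward rectifiers, 9 had positive and 6 negative values with a median of 0.03, and outside Kcnj8 they lay between -0.12 and 0.25. All 4 Kcnn genes, of the small- and intermediate-conductance calcium-activated channels, had positive values from 0.03 to 0.33. Of 5 Kcne accessory subunits 4 had positive values, from 0.01 to 0.44, and Kcne4, an inhibitory subunit, had -0.07. Of 10 genes under Kcna, which include the beta subunits Kcnab1 to Kcnab3, 7 had positive and 3 negative values, with the lowest in Kcna5, Kcna1 and Kcnab2. Kcnab2 had 5.76, 6.49 and 5.98 in the controls and 5.70, 5.63 and 5.80 in the mutants, where control replicate 2 alone stood high and the other arrays overlapped. Kcna1, a voltage-gated channel of nerve fibres, had 6.33, 6.23 and 6.20 in the controls and 5.98, 5.21 and 6.09 in the mutants. The mutants lay below the controls, lowest in mutant replicate 2, and the log2 fold change of -0.49 (SE 0.23, limma adjusted p 0.420) became -0.22 without that array. Another probe set of Kcna1 also had the mutants below the controls, at -0.43 (SE 0.19). A further one overlapped, at -0.25 (SE 0.25). A weak one, with means of 3.80 and 4.03, had the mutants above the controls, at 0.23 (SE 0.12).

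A few genes of weak signal lay higher in every mutant by small amounts. Of the 62 genes with a control mean below 6, the mutants lay above the controls for 6. Over all genes of that signal they did so for 956 of 7669. Kcns1, which has no current of its own and alters that of other subunits, had 4.82, 4.87 and 4.60 in the controls and 5.02, 5.10 and 5.04 in the mutants, a log2 fold change of 0.29 (SE 0.11, limma adjusted p 0.328). Kcnj6, an inward rectifier opened by G proteins, had 4.66, 4.94 and 4.83 in the controls and 5.02, 5.01 and 5.15 in the mutants. Its difference was 0.25 (SE 0.11, limma adjusted p 0.398). Kcnn1, a small-conductance channel, Kcnab1, a beta subunit, and Kcnh7, a relative of Kcnh2, also lay above the controls in every mutant, by 0.17 (SE 0.09), 0.13 (SE 0.10) and 0.13 (SE 0.10). None of the 5 passed the test, and with Kcnk1 and Kcnh1 they make up the 7 genes without overlap on that side, while Kcna1, Kcna5, Kcnh2 and Kcnj8 are the 4 on the other.

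Channels known from other epithelia, and Kcnk3, overlapped between the groups by their representative probe sets. Kcnj1, of the kidney tubule, had -0.02 (SE 0.09), Kcnj13, of the retinal pigment epithelium and other transporting cells, 0.17 (SE 0.13), and Kcnj16, of the kidney and brain, -0.0023 (SE 0.11), all with control means below 6. Kcnk3, an acid-sensitive leak channel of muscle and nerve, had 6.77, 7.05 and 6.87 in the controls and 6.82, 6.35 and 7.04 in the mutants. Mutant replicate 2 was its lowest array, and the value went from -0.16 (SE 0.19) to 0.03 without it. Another probe set of Kcnk3 had the mutants below the controls, at -0.17 (SE 0.09) and at -0.13 without mutant replicate 2. A further one, with groups overlapping, gave 0.09 (SE 0.09).

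The probe sets of some genes did not move alike. For 22 of the 46 genes with several probe sets, at least 1 gave a positive and 1 a negative value. Of all 167 probe sets of the family, 5 were higher and 6 lower at an unadjusted p of 0.05 or less in limma. The share over all probe sets measured was not counted. Kcnh1, a voltage-gated channel best known from brain, had 5.74, 5.72 and 5.68 in the controls and 5.89, 6.68 and 5.81 in the mutants by its representative probe set, with the mutants above the controls and mutant replicate 2 highest. That gave 0.41 (SE 0.23, limma adjusted p 0.476). Its other probe set had 5.04, 5.18 and 4.68 in the controls and 5.64, 6.49 and 6.16 in the mutants, a log2 fold change of 1.13 (SE 0.23, limma adjusted p 0.118) and of 0.93 without mutant replicate 2. This was the largest positive value of any probe set of the family, and it did not pass the test over all probe sets. Kcnh3, another channel of that group, had 0.10 (SE 0.13) by its representative probe set and values from -0.22 to 0.05 by the others.

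Kcnq1ot1, a noncoding RNA made from the Kcnq1 locus on the opposite strand, varied widely within both groups. Its log2 signal was 7.37, 6.17 and 7.87 in the controls and 6.80, 5.96 and 6.83 in the mutants. The lowest value of each group stood in replicate 2, and the log2 fold change was -0.61 (SE 0.45, 95% interval -1.67 to 0.46). Kcnd1 and Kcne1l were the 2 members on the X chromosome, with log2 fold changes of 0.21 (SE 0.12) and 0.20 (SE 0.17).

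Genes that work with potassium channels but carry other names were read from a list of 35 pumps, cotransporters, chloride channels and accessory subunits, of which 28 were used here. In limma 1 of them fell (0.396% of all genes did) and none rose (0.484%). At the unadjusted p 4 were higher (10.01% of all genes) and 3 lower (6.18%), and the median was -0.05 against 0.05 over all genes. The gene that fell was Clcn2, a chloride channel of the basolateral membrane, with 10.18, 9.99 and 9.87 in the controls and 8.99, 9.08 and 8.95 in the mutants (-1.005, SE 0.11, limma adjusted p 0.0192). Every mutant lay below every control, and without mutant replicate 2 the difference was -1.04 (limma adjusted p 0.0495). The call was lost when replicate 1 or 3 of either group was left out, where the difference lay between -1.07 and -0.92 and the limma adjusted p between 0.0511 and 0.119, and with the replicate number as a block. The other 2 that were lower were Atp1b1, the beta subunit of the sodium pump that loads cells with potassium, with 13.32, 13.31 and 13.49 in the controls and 13.05, 12.90 and 12.87 in the mutants (-0.43, SE 0.10, limma adjusted p 0.160), and Atp12a, the apical pump of the colon that takes potassium up from the lumen (-0.75, SE 0.29, limma adjusted p 0.345). Atp1b1 was lower in every mutant and had -0.41 without mutant replicate 2, but 0.0060 when a probe set with an unsuffixed name was preferred, whereas the groups overlapped for Atp12a, which had -0.50. The 4 that were higher were Lrrc26, Fxyd3, a regulator of the sodium pump in epithelia (0.80, SE 0.22, limma adjusted p 0.211), Cftr, the apical chloride channel (0.32, SE 0.11, limma adjusted p 0.312), and Hcn2, a cation channel of pacemaking cells (0.29, SE 0.09, limma adjusted p 0.287). Slc12a2, which brings potassium and chloride in across the basolateral membrane, had 11.31, 10.61 and 11.92 in the controls and 11.63, 10.77 and 10.66 in the mutants, with the groups overlapping and a log2 fold change of -0.26 (SE 0.38).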

How the data were processed

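Total RNA of 3 control and 3 Hnf4α mutant colons was screened on Affymetrix mouse whole-genome arrays, and the authors compiled the signals by RMA. The deposited values are log2 signals normalized over the 6 arrays, with a median between 5.43 and 5.53 per array, and were used as they are. RMA values carry no counts, so the precision was taken from the number of arrays and the spread between them, and separate animals are the replicates.

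After 64 control probe sets were left out, 45037 were tested with limma 3.58.1 (R 4.3.3), mutant minus control, without covariates, with Benjamini-Hochberg adjustment over all of them. Intervals are 95% limits from the same fit. Symbols came from the platform annotation: 34945 probe sets had 1 symbol, 932 several and 9160 none, and only the first were named. All 84 Kcn genes matched RefSeq by gene ID. No exact permutation test was run, since 2 groups of 3 cannot reach a two-sided p under 0.1. The test was tried on simulated data with known changes.

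Genes were named by a rule: an adjusted p under 0.05, an unadjusted p of 0.05 or less at a group mean of 6 or more, the 10 highest means, the 5 highest and 5 lowest differences at that signal, and lists of epithelial, muscle, leukocyte and neural channels. Beside the 27 genes it gave, 13 Kcn and 11 partner genes are given with values and were named after these were seen. Members and lists were chosen with earlier results of these data known. Fits with each array left out, a replicate block, quantile normalization, median centring, a filter on mean signal of 5, array weights, a variance trend, other probe set choices and SAM, the test of the methods, were alternatives.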

Additional observations from a re-analysis of the deposited data

How the results depend on the processing

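Of the 84 Kcn genes 1 was called with all 6 arrays, none with any 1 array left out (0 to 0), 0 by SAM with an approximate p, and 2 with array weights, which added Kcna5. With all arrays 2 genes were higher and 2 lower at the unadjusted p of 0.05. Leaving out arrays gave 1 to 6 higher, the count being 6 without control replicate 2, while dropping mutant replicate 3 gave 3 and dropping mutant replicate 2 gave 1, and 1 to 5 lower, with 5 without mutant replicate 1, 4 without control replicate 2 or mutant replicate 3 and 1 without control replicate 3 or mutant replicate 2. SAM and a filter on mean signal each gave 1 higher and 1 lower, array weights gave 4 higher, and a preference for unsuffixed probe sets gave 1 lower. The count of called partner genes, 1, was 0 to 1 with an array left out, being 1 without replicate 2 of either group and otherwise 0, and it was 0 by SAM. The gene was Clcn2, at -1.07 to -0.92 with an array left out.

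Whether the replicate numbers paired the mice cannot be told from 3 arrays per group. Same-numbered arrays had correlations of -0.02, 0.25 and -0.15 between their deviations from the group means. Control replicate 2 correlated best with the mutant of its own number, while control replicates 1 and 3 did not. With the replicate number as a block, 0 Kcn genes were called (Kcnk1 0.70, limma adjusted p 0.0922), 5 were lower at the unadjusted p and 0 partner genes were called.

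The median difference of the 22 genes with the stronger signal, -0.05, ran from -0.11 without mutant replicate 1 to 0.0093 without mutant replicate 2 and was 0.0070 after quantile normalization. Of the 27 genes named by the rule 18 kept their sign in every setting, and the other 9 did not. Of the 13 Kcn and 11 partner genes named after their values were seen, 9 and 8 kept it, in settings applied after seeing the data. With array weights Kcnk6 had -0.023, Kcnq1 -0.041, Kcnj16 0.056 and Kcne4 0.014, after quantile normalization Kcnd2 had -0.032, after median centring Kcnj1 had 0.015 and Kcnj16 0.030, by the mean of probe sets Kcnh3 had -0.042, Kcnj1 0.037 and Kcnj16 0.091, and by unsuffixed probe sets Abcc8 had 0.015 and Atp1b1 0.0060. With an array left out Kcnc1 ran from -0.055 to 0.20, Kcnd2 from -0.032 to 0.035, Kcnip1 from -0.30 to 0.13, Kcnj10 from -0.25 to 0.18, Kcnk13 from -0.033 to 0.20, Kcnk6 from -0.049 to 0.42, Kcnq1 from -0.081 to 0.20, Kcnq3 from -0.11 to 0.023, Kcnj1 from -0.066 to 0.034, Kcnj16 from -0.053 to 0.082, Kcnk3 from -0.32 to 0.033, Kcne4 from -0.19 to 0.13 and Slc12a2 from -0.59 to 0.059. Causes were not tested. The size of a difference is uncertain where the signal is near that of Y-linked genes in the controls.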
